A study of Mus musculus with 12 samples.

Results

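Open chromatin of mouse skin was mapped by ATAC-seq, an assay that tags accessible DNA with the Tn5 transposase, and 4348 of 177240 peaks had a lower level in the Epcam-negative cells of Lgr5-driven tumours than in every other sample. These peaks, called members, were chosen from the paired-end counts on chr1 to chr19. Counts were scaled to the in-peak total of each library (CPM), and log2(CPM + 0.5) had to be lower in Lgr5 Epcam- by at least 1 than in the lowest of the other 5 samples. That smallest difference is the margin of a peak. The rule could reach 173565 peaks, of which the members are 2.51%. Because the rule uses the difference between Lgr5 Epcam- and the other samples, that difference is described here and not tested.

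The samples came from female mice of mixed strain, and the labels give no ages. Lgr5 Epcam- (1 sample) and Lgr5 Epcam+ (2 samples) were sorted from tumours of mice with an Lgr5CreER driver and the alleles p53fl/fl and Rosa-YFP+/+ among others, in which Cre deletes p53 and marks the cells with a fluorescent protein. K14 Epcam+ (1 sample) came from tumours with a K14CreER driver and the same other alleles. Hair follicle (HF, 1 sample) and interfollicular epidermis (IFE, 1 sample) came from WT mice, which carry none of these alleles. The Lgr5 promoter is active in hair follicle stem cells, and the K14 promoter in basal cells of both the epidermis and the follicle, so each driver limits where a tumour can begin. Cells were sorted with antibodies to CD45, CD31, CD140a and Epcam, and the labels do not say whether the Lgr5 Epcam+ samples are separate animals. Every sample was sequenced in a paired-end and a single-end run, which are runs of 1 sample and not replicates. No group but Lgr5 Epcam+ had a second sample.

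Epithelial cells hold together through E-cadherin junctions, tight junctions and desmosomes, and are anchored to the basement membrane by hemidesmosomes. In the epithelial to mesenchymal transition (EMT) they give up these contacts, and repressors of the Snail and Zeb families bind E-box sequences at epithelial genes. Factors of the Grainyhead-like, Ovol and p63 families and microRNAs of the miR-200 family and miR-205 hold the epithelial state. The miR-200 family and the Zeb factors repress each other.

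The microRNA genes are shown first, because the member with the largest margin of all lies beside one of them. Mature sequences are from RefSeq (GRCm38.p6, the coordinates of mm10), written 5′ to 3′ in lower case with the seed, bases 2 to 8, in capitals. Members of the miR-200 family fall into 2 seed groups, AAUACUG and AACACUG, and both groups have a gene in each of the chr4 and chr6 clusters.
mmu-miR-200b-3p: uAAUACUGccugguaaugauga
mmu-miR-429-3p: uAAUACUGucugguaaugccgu
mmu-miR-200c-3p: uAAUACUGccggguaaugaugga
mmu-miR-200a-3p: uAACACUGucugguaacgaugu
mmu-miR-141-3p: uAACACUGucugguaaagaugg
mmu-miR-205-5p: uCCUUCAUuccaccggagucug
mmu-miR-203-3p: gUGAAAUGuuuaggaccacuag

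Beside the cluster of Mir200b, Mir200a and Mir429 on chromosome 4, 7 of the 21 peaks within 50 kb were members. The one at chr4:156059094-156060200, 3344 bp from Mir200b and 8277 bp from the gene Ttll10, had 2.95 CPM in Lgr5 Epcam- (61 counts, exact Poisson 95% interval 2.25 to 3.79 CPM), against 43.3 CPM in K14 Epcam+, 48.0 and 45.1 CPM in Lgr5 Epcam+ samples 1 and 2, 86.7 CPM in HF and 77.6 CPM in IFE. Its margin of 3.67 was the largest of all members, and it was 3.59 in the single-end run. Another member at chr4:156063802-156064932 had 1.11 CPM in Lgr5 Epcam-, against 14.3, 14.9 and 18.0 CPM in K14 Epcam+ and Lgr5 Epcam+ samples 1 and 2, 23.8 CPM in HF and 11.4 CPM in IFE, a margin of 2.88. A member that lies over Mir200a and Mir200b themselves, chr4:156054914-156055948, was low in every sample, with 1.21 CPM in Lgr5 Epcam- and 3.93 to 5.29 CPM in the other 5. Poisson intervals take each count as separate and do not cover the spread between samples. Reads copied by PCR carry no molecular identifiers, so the intervals may be too narrow even for counting error.

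At the second cluster, Mir200c and Mir141 on chromosome 6, only 2 of 23 peaks were members. The peak over Mir200c, chr6:124718063-124719583, had 2.22 CPM in Lgr5 Epcam-, 26.2 CPM in K14 Epcam+, 5.11 and 7.13 CPM in Lgr5 Epcam+ samples 1 and 2, 21.9 CPM in HF and 26.7 CPM in IFE. Both Lgr5 Epcam+ samples were thus low here next to K14 Epcam+ and the normal samples, and the peak was close to the limit with a margin of 1.04. Mir203, a microRNA of keratinocyte differentiation, had 6 members among 22 peaks. The one over the gene, chr12:112128454-112130985, had 9.33 CPM in Lgr5 Epcam-, against 37.2, 42.6 and 26.2 CPM in K14 Epcam+ and Lgr5 Epcam+ samples 1 and 2, 32.2 CPM in HF and 79.1 CPM in IFE, a margin of 1.44.

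Around Mir205, 11 of 28 peaks were members, and 6 of them followed each other without a break over 11.4 kb (chr1:193503473-193514880). The member with the largest margin there, chr1:193509673-193510899, had 1.55 CPM in Lgr5 Epcam-, against 21.2, 24.1 and 31.0 CPM in K14 Epcam+ and Lgr5 Epcam+ samples 1 and 2, 35.3 CPM in HF and 41.6 CPM in IFE. Its margin was 3.40, and 2.99 in the single-end run. It covers the start of Mir205hg, the host transcript of Mir205. Peaks next to each other share their position and a library, so the members of a locus do not count as separate observations.

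The promoters of 4 genes under members are printed because the genes are markers of the epithelial state and the members reach over their annotated start: Rab25, a small GTPase of epithelial membrane recycling, Epcam, the surface protein used in the sort, Krt5, a keratin of basal cells, and Mir205hg. Each is the 250 bases before the start on the gene's own strand (RefSeq, GRCm38.p6). Capitals mark matches to the E-box CAGGTG, the Grainyhead-like motif AACCNGTT and the AP-2 motif GCCNNNGGC on either strand. All promoters printed here hold the E-box, but only 35.8% of the 327 promoter windows under members do. The promoter windows of Ovol2, Dsp and Col17a1, which also lie under members, hold none.
Rab25 promoter, chr3:88548280-88548529, minus strand: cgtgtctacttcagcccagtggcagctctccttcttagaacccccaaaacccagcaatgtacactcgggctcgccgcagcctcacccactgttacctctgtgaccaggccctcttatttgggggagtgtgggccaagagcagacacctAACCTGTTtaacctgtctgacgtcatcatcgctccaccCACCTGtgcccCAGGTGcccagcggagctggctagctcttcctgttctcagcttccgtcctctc
Epcam promoter, chr17:87635729-87635978, plus strand: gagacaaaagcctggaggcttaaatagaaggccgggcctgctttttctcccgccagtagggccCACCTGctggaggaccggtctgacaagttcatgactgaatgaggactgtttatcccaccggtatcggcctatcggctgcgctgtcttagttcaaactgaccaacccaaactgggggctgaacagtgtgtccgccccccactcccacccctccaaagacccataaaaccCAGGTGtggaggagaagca
Krt5 promoter, chr15:101712906-101713155, minus strand: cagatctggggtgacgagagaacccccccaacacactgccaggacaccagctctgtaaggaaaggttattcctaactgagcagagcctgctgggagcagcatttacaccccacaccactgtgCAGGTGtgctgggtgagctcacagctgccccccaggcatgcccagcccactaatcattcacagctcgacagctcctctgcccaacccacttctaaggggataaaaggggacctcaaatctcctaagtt
Mir205hg promoter, chr1:193510211-193510460, minus strand: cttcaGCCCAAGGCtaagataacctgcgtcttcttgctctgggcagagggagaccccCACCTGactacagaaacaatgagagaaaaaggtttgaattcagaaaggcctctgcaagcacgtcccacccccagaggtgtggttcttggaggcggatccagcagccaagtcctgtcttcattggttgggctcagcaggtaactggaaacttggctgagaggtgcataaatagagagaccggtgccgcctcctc

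The member over the Rab25 promoter, chr3:88547941-88549055, had 0.870 CPM in Lgr5 Epcam- (18 counts, interval 0.515 to 1.37 CPM), against 19.5, 22.3 and 15.6 CPM in K14 Epcam+ and Lgr5 Epcam+ samples 1 and 2, 21.2 CPM in HF and 48.1 CPM in IFE. Its margin was 3.56, and 2.59 in the single-end run. Over the Krt5 promoter, chr15:101712366-101716570 had 14.5 CPM in Lgr5 Epcam-, against 66.9, 114 and 70.0 CPM in K14 Epcam+ and Lgr5 Epcam+ samples 1 and 2, 109 CPM in HF and 107 CPM in IFE. Its margin of 2.16 was 0.99, just under the limit, in the single-end run, where K14 Epcam+ is low from chromosome 15 on. Over the Epcam promoter, chr17:87635629-87637349 had 3.82 CPM in Lgr5 Epcam-, against 30.1, 35.6 and 33.9 CPM in K14 Epcam+ and Lgr5 Epcam+ samples 1 and 2, 11.8 CPM in HF and 14.7 CPM in IFE, a margin of 1.51. At Epcam the Epcam+ tumour samples were thus above both normal samples, while at Rab25 and Krt5 the Epcam+ tumours overlapped with them.

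Members overlapped 327 of the 32851 tabulated promoter windows of 250 bases, and reached peaks overlapped 17144. The E-box CAGGTG was found in 35.8% of the 327 windows, in 16.8% of the windows under any reached peak and in 17.2% of all windows. The Grainyhead-like motif AACCNGTT was found in 4.59%, 1.58% and 1.79%, the AP-1 motif TGANTCA in 12.8%, 6.27% and 6.75%, and the Klf motif GGGTGTGG in 7.65%, 3.55% and 3.20%, in the same order. The AP-2 motif GCCNNNGGC was in 16.2%, 19.5% and 13.7%, and the p53 family motif, CATG repeated after a gap of 6 bases, in 0 of 327 windows, 0.286% and 0.490%. Both strands were searched, and no motif contains another. The windows under members held fewer CpG dinucleotides, with a median of 4, against 14 under any reached peak and 6 over all windows. Among windows with fewer than 10 CpG, the E-box was in 30.1% of 246 under members and 18.8% of 6193 under any reached peak, the Grainyhead-like motif in 5.69% and 2.15%, the Klf motif in 8.54% and 4.09%, and the AP-1 motif in 15% and 12%. The AP-2 motif turned: at low CpG content it was in 12.2% under members and 8.86% under any reached peak. These are shares of windows that hold the letters and are not binding sites.

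Over all members, the median level was 1.74 CPM in Lgr5 Epcam-, 8.91 CPM in K14 Epcam+, 10.1 and 9.50 CPM in Lgr5 Epcam+ samples 1 and 2, 10.3 CPM in HF and 13.7 CPM in IFE. All reached peaks had medians of 2.71 CPM in Lgr5 Epcam- and 2.08 to 2.69 CPM in the others. The median member thus stood at percentile 35.1 of the peaks of Lgr5 Epcam-, and at percentiles 81.9 to 90.1 in the other samples. The members held 1.09% of the in-peak counts of Lgr5 Epcam- (95% Wilson interval 1.08 to 1.09%), 4.89% of those of K14 Epcam+ (4.88 to 4.90%), 5.85% and 5.53% in Lgr5 Epcam+ samples 1 and 2 (5.84 to 5.86% and 5.52 to 5.54%), 6.25% in HF (6.24 to 6.27%) and 7.60% in IFE (7.59 to 7.62%). The rule chose the members by these same paired-end counts, so the low share in Lgr5 Epcam- follows from the choice. The intervals take each read as separate, so reads copied by PCR could make them too narrow, and they do not cover the spread between samples. In bulk libraries, fewer cells with an open peak and less accessibility in each cell cannot be told apart.

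**Figure D1:**
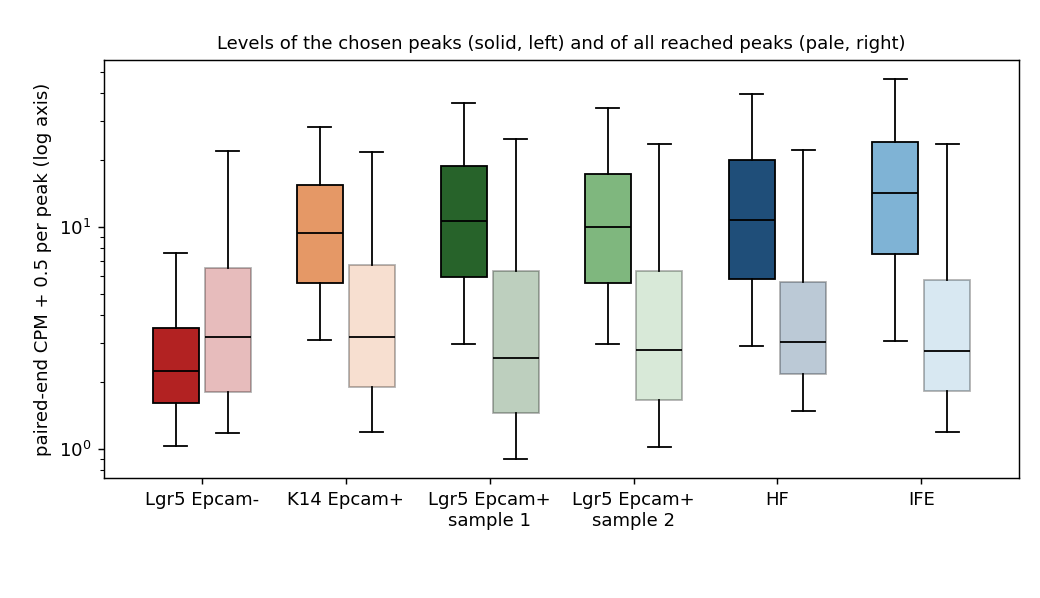
Paired-end level per peak (CPM + 0.5, log axis) of the members (solid, left) and of all reached peaks (pale, right) in each sample; boxes span the quartiles with the median as a line, and whiskers run from the percentile 5 to the percentile 95. The median of the members was 1.74 CPM in Lgr5 Epcam- and 8.91 to 13.7 CPM in the other 5 samples, while all reached peaks had similar medians of 2.08 to 2.71 CPM.

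The word closed holds for the members in part. Against the density of counts outside peaks in the same library, the median member had a density of 2.15 times in Lgr5 Epcam-, 11.5 times in K14 Epcam+, 21.7 and 16.3 times in Lgr5 Epcam+ samples 1 and 2, 7.82 times in HF and 14.2 times in IFE. In Lgr5 Epcam-, 12.6% of members were at or below the density outside peaks and 46.0% at or below 2 times that density. The rest kept a signal above it, and 0 of the 4348 had no count at all. Under 10 counts in Lgr5 Epcam- were found at 162 members, and the 12 named peaks with the largest margins had 12 to 64. The margins ran from 1.0 to 3.67 with a median of 1.36, and 1673 reached 1.5, 613 reached 2 and 21 reached 3. Just inside the limit were peaks 101120 bp from Fat1 and within Adam10 and Rab27a, each with a margin of 1.0, and just outside were peaks near Igsf3 (0.9998), Jdp2 (0.9997) and Sytl1 (0.9995). The opposite rule, a level in Lgr5 Epcam- higher by at least 1 than in every other sample, was met by 6.3% of reached peaks.

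The 5 other samples were not alike over the members. IFE was the highest of them at 1856 members, HF at 860, Lgr5 Epcam+ samples 1 and 2 at 700 and 578, and K14 Epcam+ at 354. The median log2 difference of Lgr5 Epcam- to these samples, given as the other sample minus Lgr5 Epcam-, was 2.39 for IFE, 2.01 for HF, 2.05 and 1.96 for the Lgr5 Epcam+ samples and 1.86 for K14 Epcam+. K14 Epcam+ most often set the margin as the lowest of the 5, at 1225 members, followed by HF at 1143, Lgr5 Epcam+ samples 2 and 1 at 896 and 574, and IFE at 510. The range over the 5 samples had a median of 1.28 on the log2 scale for members and 1.41 for all reached peaks.

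In the single-end run, 2760 members (63.5%) had a margin of at least 1, beside 2.12% of all reached peaks, and 4264 (98.1%) had a margin above 0. The median member had 1.18. On chr1 to chr14 the share at 1 or more was 69.9% of 3540, and on chr15 to chr19 it was 35.4% of 808. The single-end run of K14 Epcam+ has a lower level from chromosome 15 on, and with K14 Epcam+ left out of that check the shares were 71.9% and 71.4%. The low agreement on chr15 to chr19 was therefore not seen without that library.

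**Figure D2:**
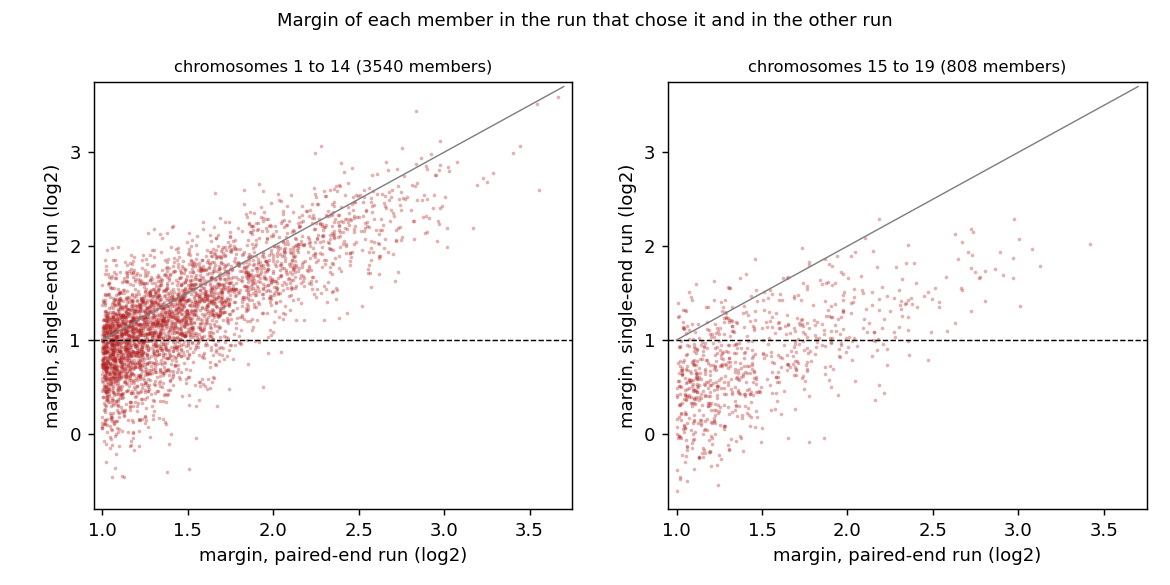
Margin of each member (log2) in the paired-end run, which chose it, against its margin in the single-end run, on chr1 to chr14 (3540 members) and chr15 to chr19 (808 members); the grey line marks equal values and the dashed line the limit of 1. In the single-end run 69.9% of members on chr1 to chr14 and 35.4% on chr15 to chr19 lay at or above the dashed line.

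A minority of the members came in runs along the chromosome. A member was the next or previous reached peak of 889 members (20.4%), and of 4.39% of the other reached peaks. Of 3852 unbroken stretches, counting single members, 393 (10.2%) held 2 or more members. There were 72 stretches (1.87%) of 3 or more, with 247 members (5.68%) in them. The longest held 7 peaks over 15.4 kb at the start of Dsp (chr13:38143285-38158671), which encodes desmoplakin, the desmosomal linker to keratin filaments. Stretches of 6 lay at Mir205, at Cdh1 (chr8:106602936-106620220), which encodes E-cadherin, near Perp (chr10:18868259-18879098), a desmosomal membrane protein, and at Krt5 (chr15:101704083-101718081). Stretches of 5 lay at Trim29 (chr9:43308312-43316701) and Hr (chr14:70553483-70564500). In their place relative to genes the members were much like other peaks: 52.7% lay in the span of a protein-coding gene against 55.9% of all reached peaks, 84.0% had such a gene within 50 kb against 82.8%, and their median width was 1180 bp against 1098 bp. Members were spread over all 19 autosomes, at 2.02% to 3.06% of the reached peaks of a chromosome.

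**Figure D3:**
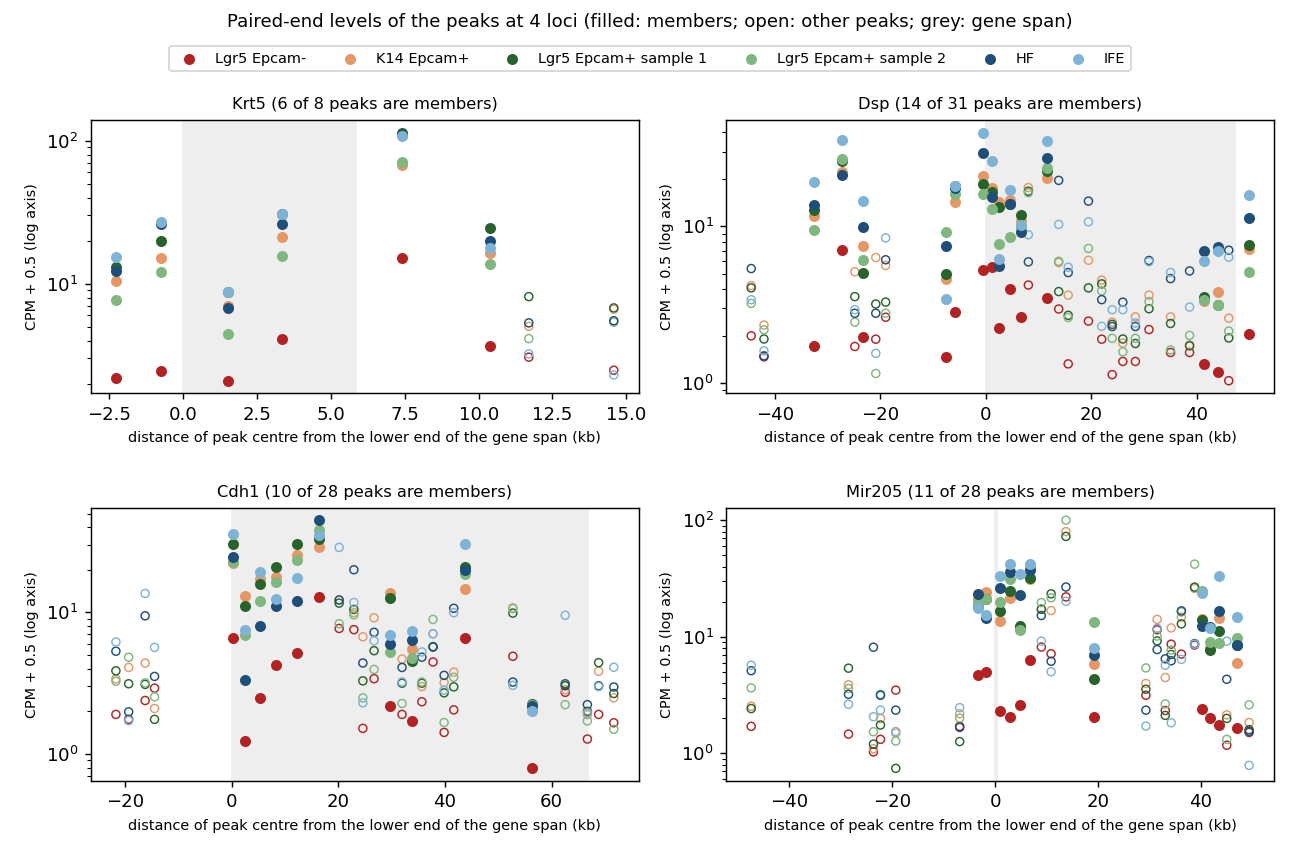
Paired-end level (CPM + 0.5, log axis) of each peak within the reach of Krt5, Dsp, Cdh1 and Mir205 against the distance of its centre from the lower end of the gene span (kb); filled points are members, open points other peaks, the grey band is the gene span and colours are samples. At the filled points Lgr5 Epcam- (red) lies below all other samples, and members make up 6 of 8, 14 of 31, 10 of 28 and 11 of 28 peaks.

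By the nearest protein-coding gene within 50 kb, 2335 genes had at least 1 member, 726 at least 2 and 69 at least 5. Those with the most were Tiam1, an activator of the GTPase Rac, with 16 of its 95 peaks, and Dsp (14 of 31), Bcl11a (14 of 33), a zinc finger factor, Ppfibp2 (13 of 36), a liprin, and Bmp7 (13 of 40), a growth factor of the BMP family. Perp and Cdh1 had 10 of 28 each, Lama3 10 of 65, Casz1, a zinc finger factor, 10 of 57 and Trp63 10 of 67. Pkp1, Grhl2 and Ripk4, a kinase needed for epidermal differentiation, had 9 members among 27, 36 and 30 peaks. They were followed by Arhgef4 (8 of 29), Macrod2 (8 of 162), Tns4 (7 of 19), Tmem51 (7 of 23), P3h2 (7 of 41), Trim29 (7 of 28) and the polarity gene Pard3 (7 of 112). Genes with more peaks have more chances of a member, and at Macrod2 and Pard3 the shares were 4.94% and 6.25%.

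Among members of above-median level with a protein-coding gene within 50 kb, 1 a gene, the largest margins after Ttll10 and Rab25 lay within Ppfibp2 (3.54), near Naif1 (3.45), within Efcab1 (3.42) and Acsbg1 (3.29), an acyl-CoA synthetase gene, and within Tmem51 (3.25). Those near Fzd10 (3.23), a Wnt receptor gene, Cd9 (3.19), a tetraspanin gene, and Dbi (3.17), an acyl-CoA binding protein gene, followed, with Abcc3 (3.07), a transporter gene, and Elf1 (3.02), an Ets factor gene. The Ppfibp2 peak, chr7:107685167-107686216, had 0.918 CPM in Lgr5 Epcam-, against 16.8, 18.4 and 16.0 CPM in K14 Epcam+ and Lgr5 Epcam+ samples 1 and 2, 39.6 CPM in HF and 47.8 CPM in IFE. Here the normal samples were above the Epcam+ tumours by more than the tumours differed among themselves. At the Naif1 peak, chr2:32470618-32471739, the values were 2.13 CPM in Lgr5 Epcam-, 28.1, 36.5 and 36.9 CPM in K14 Epcam+ and Lgr5 Epcam+ samples 1 and 2, 36.6 CPM in HF and 46.0 CPM in IFE, so that tumour and normal samples overlapped.

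Among 14 transcription factors of epithelia, 13 had a member, 34 of 289 peaks in all (11.8%). Grhl2, an activator of junction genes, had 9 of 36, and its member with the largest margin, chr15:37232325-37233510, had 4.16 CPM in Lgr5 Epcam-, against 25.7, 35.7 and 26.9 CPM in K14 Epcam+ and Lgr5 Epcam+ samples 1 and 2, 46.9 CPM in HF and 53.1 CPM in IFE. The farthest of the 9 Grhl2 members lies 39304 bp outside the gene. Trp63, which encodes the p63 factor of basal keratinocytes, had 10 of 67, the largest at chr16:25801320-25802459 with 1.30 CPM in Lgr5 Epcam-, 10.9, 9.02 and 9.93 CPM in K14 Epcam+ and Lgr5 Epcam+ samples 1 and 2, 16.9 CPM in HF and 22.8 CPM in IFE. Tfap2c had 4 of 23 and Tfap2a 2 of 23. Ovol2, a repressor of Zeb genes, had 1 of 7, over its promoter (chr2:144330713-144332382), with 4.11 CPM in Lgr5 Epcam-, against 26.5, 24.7 and 19.4 CPM in K14 Epcam+ and Lgr5 Epcam+ samples 1 and 2, 21.1 CPM in HF and 26.8 CPM in IFE. Klf5 had 1 of 19. Ovol1 had 0 of 8, although the median margin of its peaks was 0.52. The median margin of the peaks of these factors was 0.03, against -0.67 over all reached peaks, so most of their peaks did not pass the limit.

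Among 12 genes of epithelial splicing and polarity, 7 had a member, 12 of 106 peaks (11.3%). Esrp1, a splicing regulator of epithelial isoforms, had 5 of 28, and its peak at chr4:11386536-11388620 had 7.34 CPM in Lgr5 Epcam-, against 42.7, 57.6 and 46.3 CPM in K14 Epcam+ and Lgr5 Epcam+ samples 1 and 2, 51.0 CPM in HF and 73.5 CPM in IFE. Its paralog Esrp2 had 1 of 4 with a margin of 2.57. Patj, with 25 peaks, and Marveld3, with 6, had none.

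Of 14 genes of cell-cell adhesion and tight junctions, 7 had a member, 21 of 198 peaks (10.6%), and 10 of these 21 were at Cdh1. The first Cdh1 member by position and largest by margin, chr8:106602936-106604242, had 6.09 CPM in Lgr5 Epcam-, against 22.0, 30.0 and 22.3 CPM in K14 Epcam+ and Lgr5 Epcam+ samples 1 and 2, 24.0 CPM in HF and 35.5 CPM in IFE, a margin of 1.77. All 10 Cdh1 members had a margin under 2. Epcam had 3 of 13 and F11r, a junctional adhesion molecule, 3 of 15. The claudin genes Cldn1, Cldn3, Cldn4 and Cldn7 had 0 of 17, 6, 9 and 2 peaks, and Tjp1 had 0 of 27. At Cdh1 the share was 35.7% of its peaks, beside 2.51% of all reached peaks. These claudin genes and Tjp1 have too few peaks for their 0 to be read as a difference from that 2.51%.

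Desmosome genes had the highest share of the lists of protein-coding genes, 52 of 219 peaks (23.7%), with members at 11 of 13 genes and a median margin of 0.38. The order turned with genes within 10 kb, where surface proteases stood at 25% and desmosome genes at 23.0%. Beside Dsp, Perp and Pkp1, the desmosomal cadherin gene Dsg3 had 6 of 20. The Dsp member with the largest margin, chr13:38162234-38163475, had 3.0 CPM in Lgr5 Epcam-, against 19.8, 22.1 and 23.1 CPM in K14 Epcam+ and Lgr5 Epcam+ samples 1 and 2, 26.9 CPM in HF and 34.8 CPM in IFE. The genes without a member were Pkp2 (9 peaks) and Dsc2 (10 peaks). The median margin of a gene's peaks ran from -1.58 at Pkp2 to 1.12 at Pkp3.

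Hemidesmosome and laminin-332 genes had members at 8 of 10 genes, 31 of 310 peaks (10%). Lama3, a chain of the laminin that anchors basal cells, had 10 of 65. Its peak at chr18:12503161-12504678 had 4.11 CPM in Lgr5 Epcam-, against 39.3, 45.9 and 45.6 CPM in K14 Epcam+ and Lgr5 Epcam+ samples 1 and 2, 36.9 CPM in HF and 36.6 CPM in IFE. Its margin was 3.01, and 1.36 in the single-end run, where K14 Epcam+ is low on this chromosome. Col17a1, a hemidesmosomal collagen, had 7 of 28 and Itga6 5 of 47, while Itgb4, the integrin partner of Itga6, had 0 of 9 and Cd151 0 of 2.

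Among the keratins, Krt5 had 6 of 8 peaks, its basal partner Krt14 5 of 11, Krt17 3 of 5, Krt15 1 of 5, Krt16 1 of 3 and Krt19 1 of 7. Krt1, Krt6a, Krt6b, Krt7, Krt8, Krt10 and Krt18, with 3 to 13 peaks each, had none. At Krt8 and Krt18 the median margins were -1.73 and -2.09, below the -0.67 of all reached peaks. The median margin over all 85 keratin peaks was -0.11, and 17 of them (20%) were members. Only 8 of these 17 had a margin of at least 1 in the single-end run, and 12 of 17 with K14 Epcam+ left out. Of 19 matched genes of epidermal differentiation, 12 had a member, 19 of 150 peaks (12.7%), among them Dmkn with 3 of 7, Sfn with 2 of 2 and Abca12, a lipid transporter of the skin barrier, with 2 of 30. Surface proteases and their inhibitors had 13 of 60 peaks (21.7%), with Tmprss4 at 4 of 6 and Spint2 and Tmprss11e at 3 each. Growth factor signalling genes had 19 of 387 (4.91%), with at most 2 members a gene.

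Lists of other identities had few members. EMT transcription factors had 2 of 239 peaks (0.837%), 1 near Twist1 and 1 near Sox4, and a median margin of -1.48. Mesenchymal genes had 2 of 266 (0.752%), 1 near Sparc and 1 near Mmp2, and a median margin of -1.83. None of these 4 peaks lay within 10 kb of its gene. Zeb1 and Vim had 0 of 21 and 0 of 12. Fibroblast and pericyte markers had 1 of 133 (0.752%), endothelial markers 1 of 149 (0.671%), immune markers 0 of 61 and housekeeping genes 0 of 76. Melanocyte and Schwann cell markers had 3 of 82 (3.66%), all near Ngfr, a receptor that keratinocytes can also carry. The shares describe the lists beside the 2.51% of all reached peaks and were not tested.

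**Figure D4:**
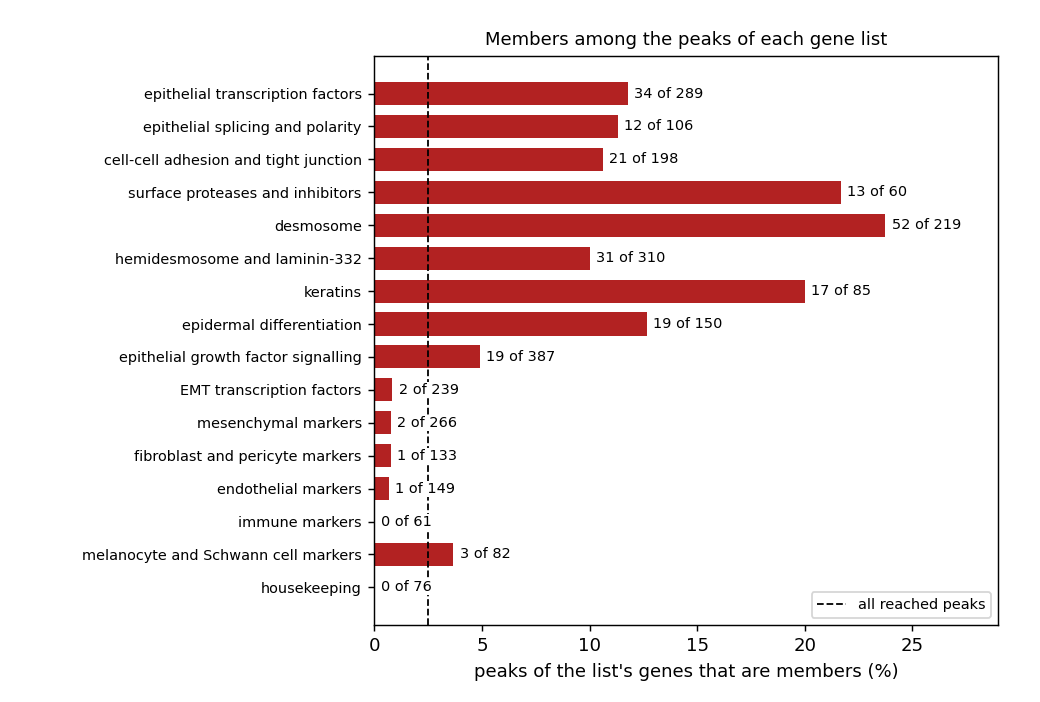
Percent of the peaks of each gene list that are members, with the number of members and of peaks beside each bar; the dashed line marks all reached peaks (2.51%). Desmosome genes stand at 23.7%, surface proteases at 21.7% and keratins at 20%, and the EMT, mesenchymal, fibroblast, endothelial, immune and housekeeping lists at 0.837% or less.

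Levels of marker genes are given as sums over the peaks of each gene. These sums hold peaks that the rule chose for a low level in Lgr5 Epcam-, 3 of 13 at Epcam and 10 of 28 at Cdh1. They are therefore a description and cannot check the sort. Epcam had 40.6 CPM in Lgr5 Epcam-, against 178 to 191 CPM in the Epcam+ tumours and 70.3 to 82.0 CPM in the normal samples, and Cdh1 had 83.5 CPM, against 213 to 251 and 232 to 287 CPM. Markers of the cells that the other antibodies address moved in part with the chosen difference. The 12 fibroblast and pericyte genes summed to 839 CPM in Lgr5 Epcam-, against 410 to 477 CPM in the Epcam+ tumours and 392 to 531 CPM in the normal samples, with 9 of 12 highest in Lgr5 Epcam-. Pdgfra, the gene of CD140a, had 105 CPM against 62.1 to 65.8 and 50.2 to 53.7 CPM. Pecam1, the gene of CD31, went the other way, with 78.7 CPM against 151 to 159 and 103 to 141 CPM. Of its 20 peaks 1 is a member. Ptprc, the gene of CD45, had 57.0 CPM, below the 74.6 to 97.5 CPM of the Epcam+ tumours and above the 27.4 to 34.8 CPM of the normal samples. The 17 mesenchymal genes summed to 2095 CPM, against 992 to 1119 and 877 to 1145 CPM, with 15 of 17 highest in Lgr5 Epcam-. Endothelial genes summed to 655 CPM against 651 to 785 and 572 to 574 CPM, with 2 of 12 highest in Lgr5 Epcam-, and immune genes to 198 CPM against 200 to 251 and 144 to 210 CPM, with 1 of the 14 that had peaks. No gene of these lists was at 0 in any sample. The part of fibroblast-like cells in the low levels of the members was not tested.

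A comparison that the rule did not use is that of Epcam+ tumours (n = 3) with normal epithelia (n = 2), whose levels were each above that of Lgr5 Epcam- by the rule. Of the members, 267 were higher in the Epcam+ tumours, beside 14.9% of all peaks, and 379 were lower, beside 15.3% of all peaks (edgeR's quasi-likelihood test over 177238 peaks, Benjamini-Hochberg adjusted p under 0.05, Lgr5 Epcam- not in the fit). Together they were 646 members (14.9%), beside 30.2% of all tested peaks. The rule asks for a level above that of Lgr5 Epcam- in each of these 5 samples, and all 4348 members passed the filter on low counts. The median log2 fold change was -0.04 for members and 0.01 for all peaks. With total-count scaling, which moved the median of all peaks to -0.19, 215 members were higher and 718 lower. The split also turned on single samples: it was 244 higher and 171 lower without IFE, 96 and 418 without HF, 83 and 221 without Lgr5 Epcam+ sample 1, and 240 and 218 without K14 Epcam+. The counts over all peaks moved too: they were 26456 higher and 27074 lower with all 5 samples, 15622 and 14854 without IFE, 16988 and 18502 without HF, 16017 and 11859 without Lgr5 Epcam+ sample 1, and 21708 and 20961 without K14 Epcam+. The fit takes HF and IFE as replicates of normal epithelium, and K14 Epcam+ and Lgr5 Epcam+ as replicates of tumour. None of HF, IFE and K14 Epcam+ has a second sample. The p-values rest on the spread among these 5 samples only. That spread holds differences of tissue and of tumour driver, and may also be technical in part.

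**Figure D5:**
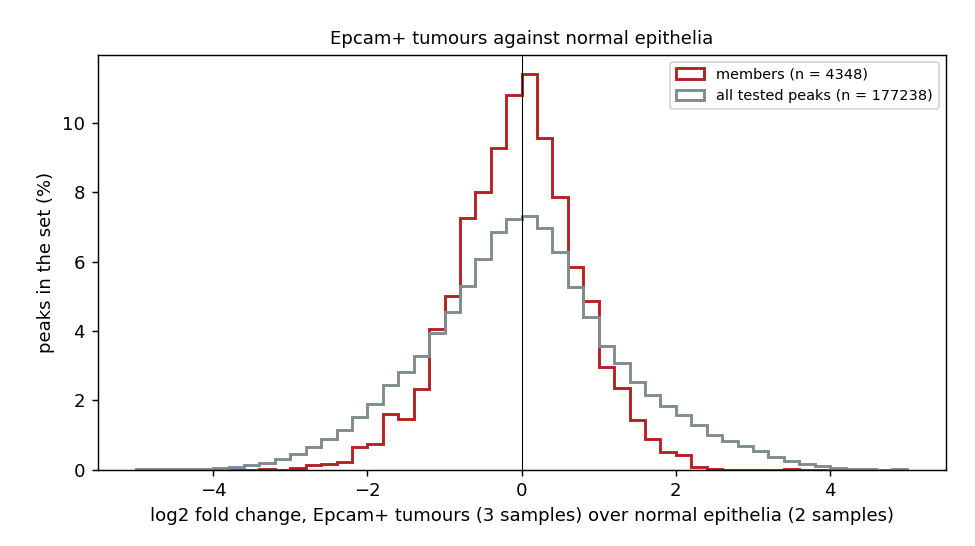
Distribution of the log2 fold change of Epcam+ tumours (3 samples) over normal epithelia (2 samples) for members (red) and all tested peaks (grey), in percent of each set. The medians were -0.04 for members and 0.01 for all tested peaks, and 14.9% and 30.2% were called in either direction.

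Among the members that rose in Epcam+ tumours, the largest changes lay within Abca13, near Twist1 and Bcl11a, within Kcnj9 and near Epcam. The Abca13 peak, chr11:9556678-9557749, had 14.1, 14.1 and 24.7 CPM in K14 Epcam+ and Lgr5 Epcam+ samples 1 and 2, 2.04 CPM in HF and 1.86 CPM in IFE in the paired-end run, and 0.676 CPM in Lgr5 Epcam-. It rose by 3.41 ± 0.43 on the log2 scale of the summed runs (SE, edgeR adjusted p = 0.000729). Its margin to Lgr5 Epcam- was 1.0, and only 0.06 in the single-end run. The peak 18334 bp from Epcam, chr17:87616364-87617645, had 23.8, 26.4 and 34.4 CPM in K14 Epcam+ and Lgr5 Epcam+ samples 1 and 2, 5.0 CPM in HF and 5.33 CPM in IFE, and 2.08 CPM in Lgr5 Epcam-. It rose by 2.17 ± 0.37 (edgeR adjusted p = 0.00234), and the Epcam promoter peak rose by 1.34 ± 0.33 (edgeR adjusted p = 0.0115). These tumour cells were sorted as Epcam+, and the part of the sort in the rises at Epcam was not tested. The third Epcam member had a log2 fold change of 0.65 ± 0.42 (edgeR adjusted p = 0.259).

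The Bcl11a peak rose by 2.26 ± 0.42 and the Kcnj9 peak by 2.17 ± 0.42 (edgeR adjusted p = 0.00355 and 0.00421). Their single-end margins were 0.57 and 0.78, under the limit of 1. The peak near Twist1, chr12:33973633-33974672, had 3.24, 2.63 and 9.72 CPM in K14 Epcam+ and Lgr5 Epcam+ samples 1 and 2, 1.30 CPM in HF and 1.28 CPM in IFE, and 0.290 CPM in Lgr5 Epcam-. It rose by 2.30 ± 0.60 (edgeR adjusted p = 0.0158), but did not pass without HF or without IFE, and its single-end margin was -0.12. All 3 members at Krt17, a keratin of wounds and tumours, rose, by 2.09 ± 0.28, 1.98 ± 0.44 and 1.78 ± 0.34 (edgeR adjusted p of 0.000860 to 0.00750). At Krt14 1 of 5 members rose and at Krt5 0 of 6 passed, with log2 fold changes of -0.56 to 0.21. The fit sums both runs, and the single-end run of K14 Epcam+ is low from chromosome 15 on, where Krt5 and Epcam lie: the peak 18334 bp from Epcam had a log2 fold change of 2.62 in the paired-end run alone and 1.71 in the single-end run alone. By list, 4 of 17 keratin members rose, the 3 at Krt17 among them, and 1 fell. Of 21 adhesion members 4 rose and 0 fell, and of 52 desmosome members 2 rose and 6 fell. At epithelial transcription factors 1 of 34 members rose and 2 fell. Of 13 members at surface proteases 3 rose and 0 fell, of 31 at hemidesmosome genes 3 and 1, and of 19 at differentiation genes 3 and 1. Growth factor signalling had 0 and 1 of 19, and splicing and polarity 0 and 0 of 12. Over all peaks 14.9% were higher and 15.3% lower, and the lists were not tested against these shares.

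The largest falls lay at Hs3st2, Hsd17b4, Slc16a7, Nsmce2 and Gm17359. In the single-end run the margins of these peaks were 0.20, 0.31, 1.12, 0.64 and 0.75, so that only Slc16a7 kept the limit of 1. Hsd17b4 and Nsmce2 lie on chromosomes 18 and 15, where the single-end run of K14 Epcam+ is low. At Hsd17b4 that run had 1.62 CPM in K14 Epcam+, 1.22 CPM in Lgr5 Epcam- and 3.11 CPM or more in the rest. At Nsmce2 K14 Epcam+ (2.25 CPM) and Lgr5 Epcam+ sample 2 (2.26 CPM) were alike. The Slc16a7 peak, chr10:125362267-125363341, had 3.34, 2.60 and 4.49 CPM in K14 Epcam+ and Lgr5 Epcam+ samples 1 and 2, 35.6 CPM in HF and 37.4 CPM in IFE. It fell by 2.72 ± 0.33 on the log2 scale (edgeR adjusted p = 0.000645), and it was lowest in Lgr5 Epcam-, with 0.821 CPM. Peaks within Gm17359, Hsd17b4, a gene of peroxisomal fatty acid breakdown, and Nsmce2 fell by 2.68 ± 0.38, 2.84 ± 0.51 and 2.70 ± 0.45 (edgeR adjusted p = 0.00118, 0.00311 and 0.00226). The peak 37487 bp from Hs3st2 rests on HF: it had 1.49, 1.22 and 2.07 CPM in K14 Epcam+ and Lgr5 Epcam+ samples 1 and 2, 42.6 CPM in HF and 3.54 CPM in IFE. Its fall of 3.29 ± 0.72 (edgeR adjusted p = 0.00698) was -0.85 and did not pass without HF.

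Between the normal samples, with 1 sample each and no test, 112 members (2.58%) were higher in HF than in IFE by a log2 ratio of at least 1 in each run, beside 5.43% of all reached peaks, and 708 (16.3%) were lower, beside 5.78%. The median log2 ratio of HF over IFE was -0.42 for members and 0.00 for all reached peaks. With a limit of 2, 9 members (0.207%) were higher in HF, beside 0.914% of all reached peaks, and 14 (0.322%) were lower, beside 0.129%. The members were thus, in the median, at a higher level in IFE, which was also the sample with the highest median level of members. HF had the lowest share of paired-end counts in peaks of all samples, 27.5% against 34.0% in IFE. Its median member stood at 7.82 times the density outside peaks, against 14.2 times in IFE. The part of this library difference in the lower HF levels was not tested.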

How the data were processed

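ATAC-seq counts of 6 samples in 2 runs each (12 tables) were used. The genotypes of the tumour mice hold 1 further allele that is not reported here. The deposited values are raw counts per peak over 1 shared list of 177240 peaks. Per the submitters' processing notes, Bowtie2, HOMER, bedtools and HTSeq were used on mm10; their versions, the read filters, duplicate removal and peak calling: not given in the sources used here. In-peak counts were 16190042 to 32703016 per paired-end run and 15896612 to 30238390 per single-end run. HTSeq summary entries were left out of scaling, and in-peak counts were 27.5% to 51.1% of paired-end counts in and outside peaks.

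The rule dropped 75 peaks with a paired-end total over 3 times the single-end total. The members and the 17 gene lists (218 of 219 genes matched by symbol) were chosen with earlier results of these data known. Genes were the nearest protein-coding span within 50 kb, since the gene table holds no strand. Named genes are the 20 with the most members, the 12 largest margins among members of above-median level, up to 4 with and 2 without members per list, the 3 peaks on either side of the limit, the 5 largest changes each way between tumours and normal samples, and a set of known epithelial and EMT genes; Marveld3, Cd151, Sfn, Hr, the other claudins and simple keratins were named after their values were seen. Promoter windows were cut to the 250 bases before the start.

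For Epcam+ tumours against normal epithelia the runs were summed per sample and tested with edgeR 4.0.16 under R 4.3.3 and limma 3.58.1, after a filterByExpr filter (minimum count 10) and TMM scaling, by a robust quasi-likelihood fit with 3 residual degrees of freedom, Benjamini-Hochberg adjustment over all peaks. The biological coefficient of variation was 0.344. The script was tested on simulated data. HF and IFE were compared by size (TMM-scaled CPM, prior count 2). Alternatives included DESeq2 1.42.0, other scalings and limits, each run alone and leaving out each sample.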

Additional observations from a re-analysis of the deposited data

How the results depend on the processing

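The 4348 members became 1673 with a limit of 1.5, 613 with a limit of 2 and 2063 with a pseudocount of 2. With the single-end run (3686), summed runs (3788), TMM scaling (4557), centring in windows of 10 Mb (4365) or no drop of peaks with high paired-end totals (4348) the count stayed within 1.5 times, and it was 4945 to 5776 with 1 of the other samples left out, a count that can only grow. Of the 646 tumour calls, the 267 higher members were 83 to 244 and the 379 lower members 171 to 418 when 1 sample was left out. The lower members were 248 in the single-end run and 718 with total-count scaling, while DESeq2 gave 350 higher and 400 lower. For HF over IFE a limit of 2 left 9 higher and 14 lower. The share of members among keratin peaks was 9.41% in the single-end run, and that of EMT transcription factors 0%; list shares in that run were an alternative chosen after seeing the data. With genes within 10 kb, the share was 0% for EMT transcription factors and 0% for mesenchymal genes. The cause of these changes was not tested. The peak near Igsf3, just outside the limit, had a margin of -0.03 in the single-end run, and the member near Twist1 -0.12. Of 117 values for tumours against normal samples 114 kept their side of the threshold, and of 90 margins 72 did, with 12 below and 6 above the limit, all at the 6 peaks beside it.

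No paired analysis was made. Only Lgr5 Epcam+ has a second sample, and the sample titles do not say which samples came from the same animal. With 1 sample in all other groups, a difference of Lgr5 Epcam- cannot be told apart from a property of that library. Depth limits the lowest levels: 162 members had under 10 paired-end counts in Lgr5 Epcam-.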

Other observations

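On the X and Y chromosomes, which the rule leaves out, 64 of 3600 peaks (1.78%) showed the same difference between Lgr5 Epcam- and the other samples, against 2.51% of the reached peaks of the autosomes. Of the 75 peaks dropped for a high paired-end total, 0 showed it.

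In windows of 10 Mb with at least 100 peaks, the highest share of members was 6.47% (55 of 850 peaks) at 150 to 160 Mb of chromosome 4, which holds the cluster of Mir200b, Mir200a and Mir429, followed by 5.69% (31 of 545 peaks) at 190 to 200 Mb of chromosome 1, which holds Mir205 and the laminin gene Lamb3. Over all peaks of these windows, the median log2 difference of Lgr5 Epcam- minus the median of the other samples was -0.20 and -0.15. With levels centred in such windows, the largest margin, that of the peak near Ttll10, was 2.95 in place of 3.67.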
